A study of Mus musculus with 8 samples.

Results

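Nitric oxide, itaconate and the enzymes that remove superoxide were followed through 9 mouse genes chosen by symbol: Nos2, Acod1, Gch1, Ass1, Arg2, Sod1, Sod2, Cat and Gpx1. All 9 symbols were found once each among the 54532 Ensembl gene identifiers counted in every library. The RNA came from primary islets of mice aged 25 to 30 weeks, either wildtype or labelled STING KO, which were picked by hand and kept overnight in culture. Islets of each genotype then received DMSO, the solvent, or DMXAA, a small molecule that activates mouse STING, at 50 μg/mL for 3 h. The 4 groups were wild-type with DMSO, wild-type with DMXAA, knockout-labelled with DMSO and knockout-labelled with DMXAA, with 2 libraries in each. The labels give neither the sex of the mice nor how the Sting-/- allele was made, and they do not state if replicate libraries stem from different animals. The p-values therefore reflect only how far these 8 libraries varied, and that variation may be technical.

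Inducible nitric oxide synthase, the product of Nos2, makes nitric oxide from arginine and needs tetrahydrobiopterin as a cofactor. Gch1 encodes the enzyme that opens tetrahydrobiopterin synthesis, Ass1 an enzyme that helps to rebuild arginine from citrulline, and Arg2 the mitochondrial arginase, which takes arginine away. Acod1 encodes the enzyme that diverts cis-aconitate from the citric acid cycle to itaconate, and is known from activated macrophages. Superoxide is turned into hydrogen peroxide by Sod1 in the cytosol and by Sod2 in mitochondria, and the peroxide is removed by catalase (Cat) and by glutathione peroxidase 1 (Gpx1). Beta cells are known for low levels of catalase and glutathione peroxidase, and cytokines induce Nos2 and Sod2 in them.

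Library totals ran from 15624020 to 19601850 counts. Sting1, the targeted gene, held between 19 and 48 counts in every library and was not lower in those labelled knockout, so genotype is given as labelled throughout. Gene-level counts leave unknown which of its exons were read. Islet hormones and beta cell genes matched the labelled tissue, with the 9 beta cell markers summing to between 162500 and 323000 CPM (each count divided by its TMM-adjusted library size and put on a common scale). Other cells were present too. Summed markers of acinar cells ran from 399.9 to 6217 CPM, those of endothelial cells from 741 to 1461 CPM, those of duct cells from 778 to 1713 CPM and those of fibroblasts and stellate cells from 104 to 324 CPM. Lymphocyte markers summed to 82.1 and 62.3 CPM in both knockout-labelled libraries given DMSO, against 2.91 to 25.3 CPM in the other 6. Of 8 neutrophil markers, Ly6g, Elane and Retnlg had 0 counts in all libraries and the sum stayed between 1.02 and 1.79 CPM.

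The RefSeq promoter table for build GRCm38.p6 held 7 of the 9 members; Nos2 and Arg2 were those without an entry. The windows reach from 250 bases before to 50 bases after the annotated start. The promoter of Acod1 is shown because that gene alone passed the test, and the promoter of Sod2 because Sod2 came nearest to it among the antioxidant members. The Acod1 window is chr14:103046762-103047061 on the plus strand, and its capitals mark a TATA box (TATAAA) at position -28. The Sod2 window is chr17:13007589-13007888 on the plus strand, and its capitals mark a match to the letters of an interferon gamma activation site (GAS, TTCNNNGAA) at position -185. That position counts from the RefSeq start. The GENCODE M21 gene begins further upstream, at 13006846, so the Sod2 window lies inside it.
Acod1: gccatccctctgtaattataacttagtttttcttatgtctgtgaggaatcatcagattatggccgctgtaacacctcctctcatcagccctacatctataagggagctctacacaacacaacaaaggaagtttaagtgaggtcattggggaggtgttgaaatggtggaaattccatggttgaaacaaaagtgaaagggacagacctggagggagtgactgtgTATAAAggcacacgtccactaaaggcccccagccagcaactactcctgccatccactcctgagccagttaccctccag
Sod2: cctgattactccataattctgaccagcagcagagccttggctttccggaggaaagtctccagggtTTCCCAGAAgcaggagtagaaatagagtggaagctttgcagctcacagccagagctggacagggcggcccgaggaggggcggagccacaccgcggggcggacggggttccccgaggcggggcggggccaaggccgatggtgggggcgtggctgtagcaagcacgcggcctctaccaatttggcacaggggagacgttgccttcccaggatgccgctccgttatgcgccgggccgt

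Both strands of the 7 windows were searched for 6 motifs, and matches of different motifs did not overlap. An NF-kB consensus was met in Gpx1 at position -55 on the minus strand, and 1.47% of all 32851 promoter windows hold it. The GAS letters were met in Sod2, with a background of 8.3%, and the antioxidant response letters TGACNNNGC in Sod1 at position -56 on the minus strand, with a background of 12.4%. TATAAA was met in Acod1, in Sod1 at position -37 and in Gch1 at position -188 on the minus strand, against 13.6% of all windows. The interferon-stimulated response element (3.44% of windows) and the cyclic AMP response letters TGACGTCA (1.79%) were in none of the 7 windows. The windows also differed in base composition, with 47% G and C in Acod1 and Gpx1 and 60.3% to 74% in the other 5. A match in these letters is a description of the sequence, and its absence from a window says nothing about the factor.

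Levels of the 9 genes spanned a wide range. Per kb of the principal annotated transcript, Sod1 averaged 324 ± 79.8 CPM per kb, Gch1 123 ± 14.7 and Gpx1 73.4 ± 18.9 (SD, n = 8 libraries of all groups). Sod2 followed at 17.4 ± 3.54 CPM per kb, Ass1 at 9.41 ± 2.94 and Cat at 4.57 ± 1.12. The lowest were Acod1 at 0.81 ± 0.887 CPM per kb, Nos2 at 0.441 ± 0.268 and Arg2 at 0.191 ± 0.0959. Transcripts of the inducible enzymes were thus rare in whole islets, and those of the antioxidant Sod1 and the cofactor enzyme Gch1 abundant. The order of the 3 highest depended on the length used, since over the union of all annotated exons Gpx1 was at 54.6, Gch1 at 54.5 and Sod1 at 52.3 CPM per kb. The places of the other 6 did not change.

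The first comparison asked how the enzymes responded to DMXAA in wild-type islets. The itaconate enzyme gene rose. Acod1 (ENSMUSG00000022126, mm10 chromosome 14, 103046977 to 103056573, plus strand, protein-coding) had 15 and 15 counts under DMSO and 108 and 112 counts under DMXAA. Scaled to library size these were 0.789 and 0.738 CPM against 5.81 and 5.83 CPM. The groups were far apart, and the exact 95% Poisson intervals, which cover counting error only, ended at 1.3 CPM in DMSO and began at 4.77 CPM in DMXAA. The mean went from 0.763 ± 0.0361 to 5.82 ± 0.01 CPM (SD, n = 2 libraries each). The log2 fold change was 2.92 (SE 0.37, 95% interval 2.12 to 3.72, edgeR adjusted p = 0.000563), or 7.57-fold. Acod1 was the only member called among the 8 that passed the filter on low counts, where 1.48% of all 17055 genes tested were called in either direction and 1.11% upward.

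Markers of macrophages, the cells best known for Acod1, were not called beside it. The 15 markers summed to 130 and 91 CPM in wild-type islets given DMSO and to 87.6 and 82 CPM in those given DMXAA, with 0 of 15 called by edgeR, a median log2 fold change of -0.21 and none at 0 in all libraries. The markers did not move as one, since C1qa was at 12.4 and 17.7 CPM under DMSO and 19.9 and 21.6 CPM under DMXAA and Mertk at 3.31 and 4.23 against 6.46 and 6.40 CPM, while Lyz2 was at 38.2 and 12.2 against 6.46 and 5.67 CPM. Endothelial markers were the 1 class with calls in this comparison, 3 of 14 lower, with sums of 930.2 and 1184 CPM under DMSO and 741 and 767 CPM under DMXAA. In such bulk RNA, fewer cells of a type and less RNA per cell cannot be told apart, and which cells held the Acod1 transcripts was not tested.

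**Figure D1:**
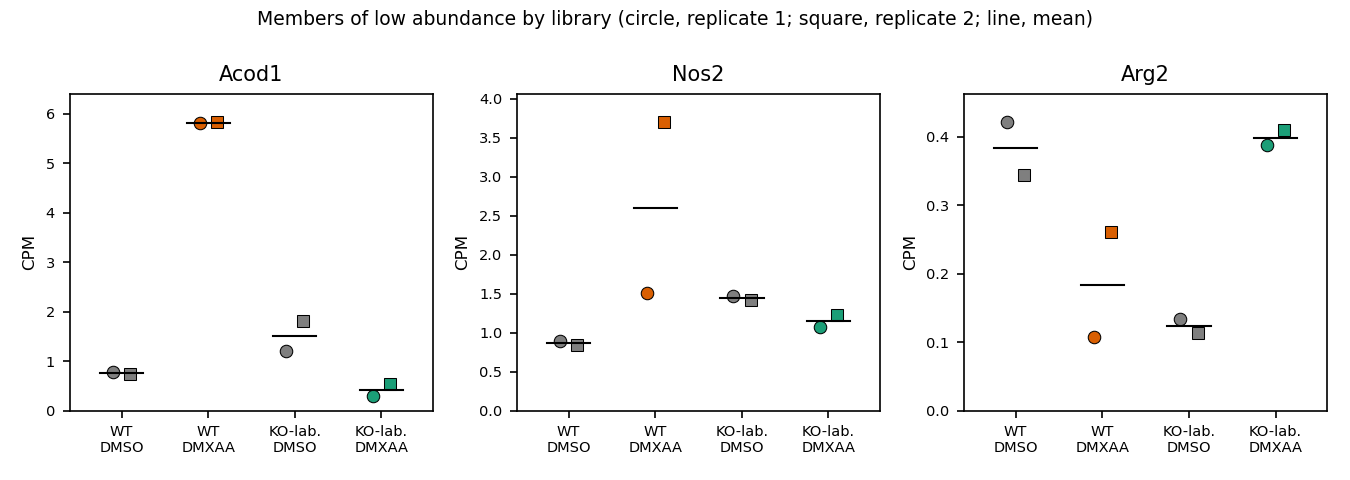
CPM of Acod1, Nos2 and Arg2 in each library, by genotype label and treatment (KO-lab., knockout-labelled); circles are replicate 1, squares replicate 2 and lines the mean of the 2 libraries, and the vertical axes start at 0 and differ between panels. Both wild-type DMXAA libraries are at 5.81 and 5.83 CPM for Acod1, whereas for Nos2 they lie at 1.51 and 3.69 CPM.

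Nos2 (ENSMUSG00000020826, chromosome 11, 78920787 to 78960254, plus strand) did not pass the test. It had 17 and 17 counts under DMSO and 28 and 71 under DMXAA, or 0.894 and 0.836 CPM against 1.51 and 3.69 CPM. Both treated libraries were above both untreated ones, but they differed from each other more than counting error allows, with Poisson intervals of 1 to 2.18 CPM and 2.89 to 4.66 CPM. The log2 fold change was 1.59 (SE 0.48, 95% interval 0.55 to 2.63, edgeR adjusted p = 0.211), and without wild-type DMXAA replicate 2 it was 0.80.

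The genes that feed the synthase were described next. The cofactor gene Gch1 (ENSMUSG00000037580, chromosome 14, 47153895 to 47189413, minus strand) was at 318 and 304 CPM under DMSO and at 340.5 and 326 CPM under DMXAA. Its groups lay close together, and the log2 fold change of 0.10 (SE 0.17, 95% interval -0.26 to 0.46, edgeR adjusted p = 0.839) sets a limit on any change at this depth of 5256 to 7403 counts per library. Ass1 (ENSMUSG00000076441, chromosome 2, 31470207 to 31520672, plus strand), which recycles citrulline, was at 8.05 and 11 CPM under DMSO and at 11.9 and 19.9 CPM under DMXAA. The treated libraries were higher without overlap and wide apart, with a log2 fold change of 0.74 (SE 0.24, edgeR adjusted p = 0.266). Without wild-type DMXAA replicate 2 the value for Ass1 was 0.32. Part of the Ass1 signal may be split with the processed pseudogene Gm5424 on chromosome 10, which shares 911 stretches of 50 bases with it, and Gm5424 itself held 3.21 and 3.54 CPM under DMSO and 4.14 and 7.65 CPM under DMXAA.

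Arg2 (ENSMUSG00000021125, chromosome 12, 79130777 to 79156301, plus strand), the arginase of mitochondria, was too rare to be tested. Wild-type islets gave 8 and 7 counts under DMSO and 2 and 5 under DMXAA, and knockout-labelled islets gave 2 and 2 under DMSO and 8 and 7 under DMXAA. All libraries held at most 8 counts, and their Poisson intervals overlapped across all groups. In addition, 285 of its 1428 exon bases overlap exons of Vti1b on the opposite strand, and its count is uncertain because the strand setting is not given in the sources used here.

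The antioxidant members moved by small amounts in wild-type islets and none passed the test. Sod1 (ENSMUSG00000022982, chromosome 16, 90220754 to 90226329, plus strand) was at 111 and 182 CPM under DMSO and at 212 and 201 CPM under DMXAA. The groups did not overlap, but wild-type DMSO replicate 1 was the lowest of all 8 libraries and wide of replicate 2. The log2 fold change was 0.49 (SE 0.22, edgeR adjusted p = 0.417), and it depended on the control library used, with 0.20 without DMSO replicate 1 and 0.89 without DMSO replicate 2, where it was called (adjusted p = 0.0363). Wild-type DMSO replicate 1 was also the library with the highest sum of acinar markers, 6217 CPM against 1329 CPM in replicate 2; the part of this in the Sod1 value was not tested. The processed pseudogene Gm8566 shares 137 stretches of 50 bases with Sod1, so a small part of its count may be split as well.

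Sod2 (ENSMUSG00000006818, chromosome 17, 13006846 to 13040063, plus strand), the mitochondrial dismutase, was at 69.7 and 82.3 CPM under DMSO and at 92.5 and 103.5 CPM under DMXAA. All treated values lay above the untreated ones, with a log2 fold change of 0.37 (SE 0.15, 95% interval 0.04 to 0.69, edgeR adjusted p = 0.381). Of the distinct 50-base stretches in all annotated Sod2 transcripts, 16% also occur in Rps6ka2 and 17.6% in AC166110.4. These 2 genes held 20005 and 9 counts over the 8 libraries. The shares are of sequence and not of reads, so how uncertain they make the Sod2 count was not measured. Catalase (Cat, ENSMUSG00000027187, chromosome 2, 103453849 to 103485160, minus strand) was the only tested member with a negative value, at 11.8 and 10.8 CPM under DMSO and 7.48 and 8.85 CPM under DMXAA. Its log2 fold change was -0.46 (SE 0.21, edgeR adjusted p = 0.419). Gpx1 (ENSMUSG00000063856, chromosome 9, 108338903 to 108340343, plus strand) was at 65.9 and 59.3 CPM under DMSO and 64.8 and 64.2 CPM under DMXAA. These groups overlapped, and the log2 fold change of 0.04 had a 95% interval from -0.37 to 0.46 (edgeR adjusted p = 0.952).

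Non-overlap alone was common in these libraries. Of the 8 tested members, 6 were higher and 1 lower with DMXAA without overlap, where 22.5% and 23.9% of all genes tested did so. At an unadjusted edgeR p under 0.05 there were 5 higher and 1 lower, against 5.73% and 6.14% of all genes (11.9% in all). The median log2 fold change was 0.43 over the 8 members and 0.00 over all genes.

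**Figure D2:**
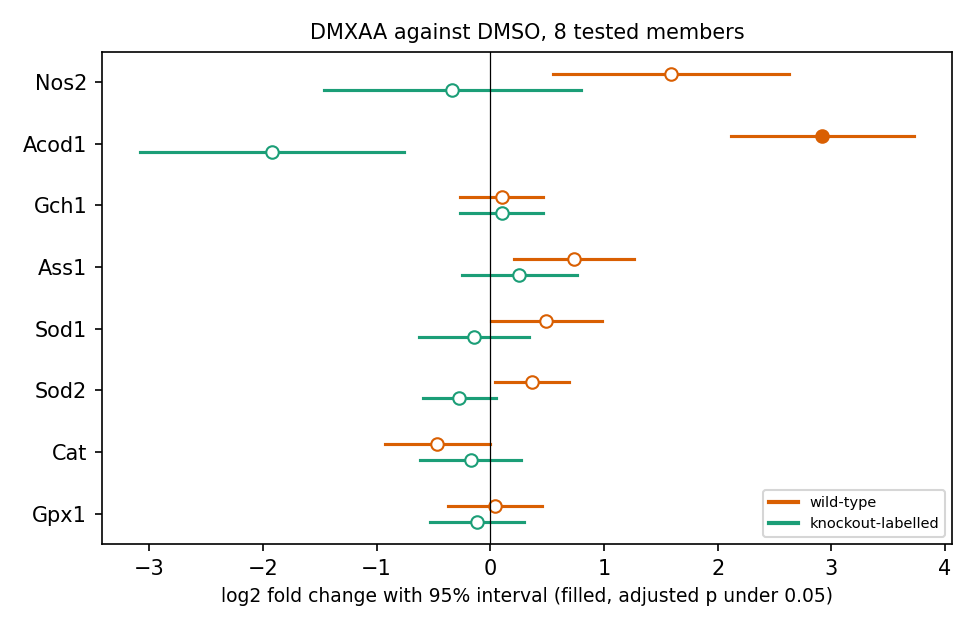
Log2 fold change of DMXAA against DMSO for the 8 tested members in wild-type (orange) and knockout-labelled islets (green); points are edgeR estimates, bars 95% intervals and filled points an adjusted p under 0.05. Acod1 in wild-type islets, at 2.92, is the one filled point.

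The second comparison asked about DMXAA in the knockout-labelled islets. No member was called by edgeR there, and 1 of 8, Acod1, had an unadjusted p under 0.05; DESeq2 called 0 as well. Over all genes 0.375% were called (0.164% upward and 0.211% downward), and 7.3% had such an unadjusted p (4.0% upward and 3.3% downward). Acod1 had 18 and 32 counts under DMSO and 6 and 9 under DMXAA, or 1.2 and 1.81 CPM against 0.29 and 0.527 CPM. The treated libraries were the lower ones without overlap, the opposite order to the wild type, with a log2 fold change of -1.92 (SE 0.54, 95% interval -3.08 to -0.76, edgeR adjusted p = 0.22). These are few counts, and the value without a single library ranged from -2.35 to -1.52. Lymphocyte markers lay in the same order, at 82.1 and 62.3 CPM under DMSO and 5.57 and 10.4 CPM under DMXAA, with 3 of 7 tested members lower by the test; their part in the Acod1 value was not tested. Macrophage markers summed to 117 and 113 CPM under DMSO and to 105 and 194 CPM under DMXAA, with 0 of 15 called. Endothelial markers had 2 of 14 called higher, none lower and a median log2 fold change of 0.66. Acinar markers had a median of -2.65, with 0 of 10 tested called. The part of these markers was not tested either.

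Nos2 had 22 and 25 counts under DMSO and 22 and 21 under DMXAA in these islets, or 1.47 and 1.42 CPM against 1.07 and 1.23 CPM. The log2 fold change was -0.33, with a wide 95% interval from -1.46 to 0.80 (edgeR adjusted p = 0.975). Gch1 was at 350.5 and 343 CPM under DMSO and 310.5 and 433 CPM under DMXAA, and Ass1 at 17.2 and 17.8 CPM against 20.9 and 21 CPM. Neither passed the test, with log2 fold changes of 0.10 (edgeR adjusted p = 0.977) and 0.26 (0.922).

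Among the antioxidant members of the knockout-labelled islets, Sod2 was at 134 and 122 CPM under DMSO and 100.5 and 111 CPM under DMXAA. Its treated libraries were lower without overlap, at a log2 fold change of -0.27 (SE 0.15, edgeR adjusted p = 0.767). Sod1 was at 248 and 253 CPM under DMSO and 183 and 271 CPM under DMXAA, and Gpx1 at 88 and 107 CPM against 70.4 and 109.8 CPM. Cat was at 14.1 and 15.8 CPM under DMSO and 11.7 and 15 CPM under DMXAA. These 3 genes overlapped between treatments, and the treated replicates stood apart from each other, replicate 2 being the higher for all 3 and for Gch1. The beta cell marker sum moved with them, at 181000 CPM in knockout-labelled DMXAA replicate 1 and 323000 CPM in replicate 2; its part in these values was not tested. Of the 8 tested members, 1 was higher and 3 were lower without overlap, against 18.1% and 17.7% of all genes, and the median log2 fold change was -0.16 (0.00 over all genes).

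**Figure D3:**
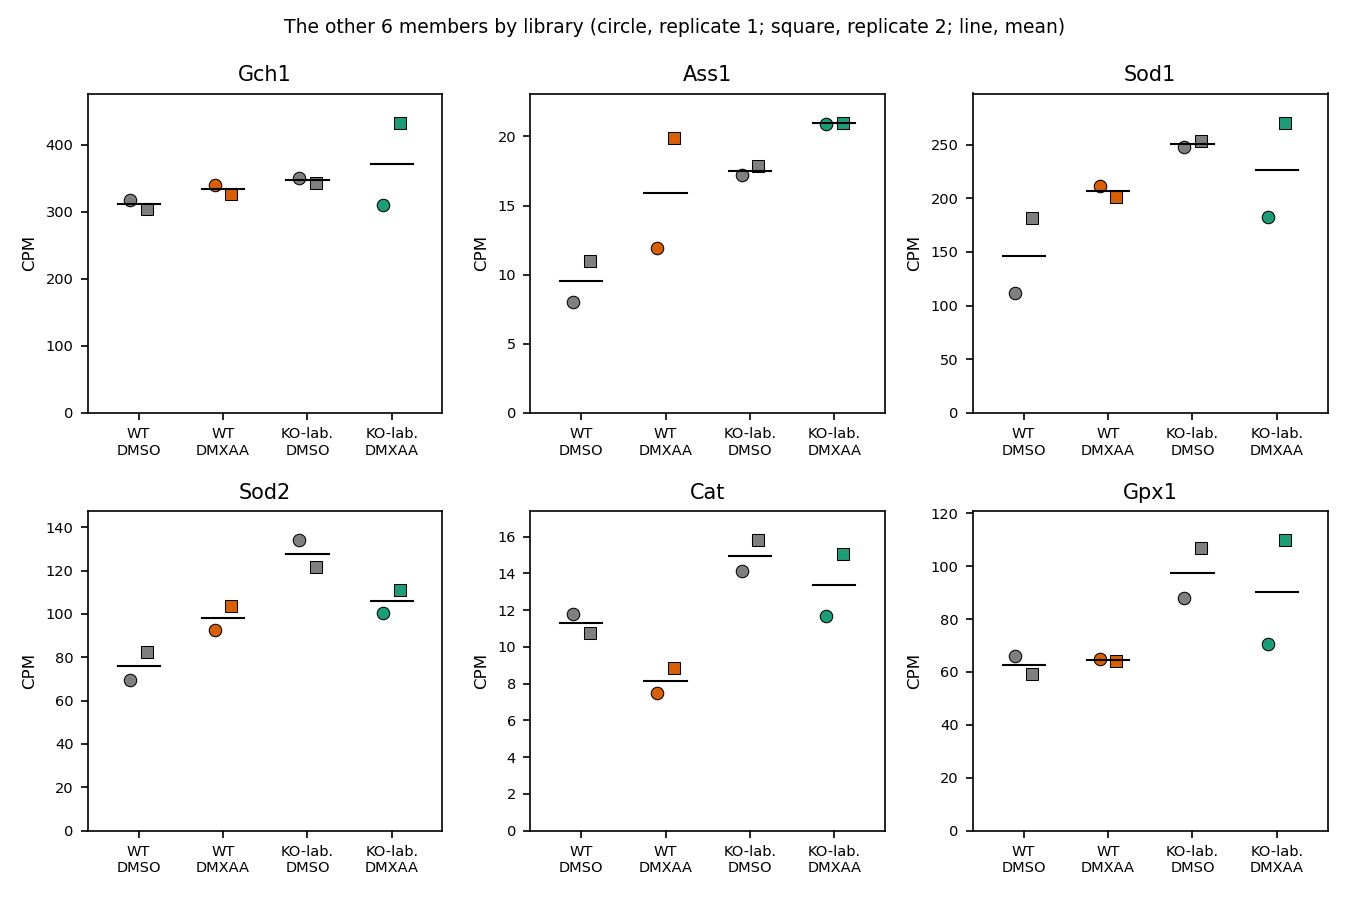
CPM of Gch1, Ass1, Sod1, Sod2, Cat and Gpx1 in each library, by genotype label and treatment (KO-lab., knockout-labelled); circles are replicate 1, squares replicate 2 and lines the mean of the 2 libraries, and the vertical axes start at 0 and differ between panels. Under DMSO both knockout-labelled libraries lie above both wild-type ones in all 6 panels, as for Sod2 with 134 and 122 CPM against 69.7 and 82.3 CPM.

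The third comparison tested whether the DMXAA effect differed between genotype labels. Acod1 was called, with a difference of -4.84 on the log2 scale, knockout-labelled minus wild-type (SE 0.65, 95% interval -6.25 to -3.43, edgeR adjusted p = 0.00173). The difference joins a wild-type rise of 2.92 with a value of -1.92 in knockout-labelled islets. It was the only call among the 8 tested members, with 1.2% of all genes called, 0.668% upward and 0.528% downward, and it held in every fit that left out 1 library (differences from -5.28 to -4.44, adjusted p from 0.00521 to 0.0384). At an unadjusted p under 0.05 there were 3 members, all with negative differences, against 8.71% of all genes (4.67% upward and 4.04% downward). Nos2 differed by -1.92 (SE 0.72, edgeR adjusted p = 0.398) and Sod2 by -0.64 (SE 0.21, 95% interval -1.10 to -0.19, adjusted p = 0.295), both without passing the test. Sod1 differed by -0.64 (adjusted p = 0.604), Ass1 by -0.48 (0.735), Cat by 0.29 (0.826), Gpx1 by -0.16 (0.914) and Gch1 by 0.00 (1). For Gch1 the 95% interval of the difference, from -0.51 to 0.51, was narrow beside that of Nos2, from -3.47 to -0.37. Endothelial markers had 6 of 14 called in this comparison, all with positive differences, and their part in the members' values was not tested.

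The fourth comparison set the genotype labels against each other under DMSO. No member was called by edgeR, while 4 had an unadjusted p under 0.05, all higher in knockout-labelled islets, against 6.85% of all genes (5.42% lower, 12.3% in all). Of all genes 0.223% were called, 0.182% higher and 0.041% lower. DESeq2 called 1 member, Sod2. All 8 tested members had both knockout-labelled libraries above both wild-type ones, where 24.3% of all genes tested did and 22.4% had the opposite order, and the median log2 difference was 0.74 over the members and 0.00 over all genes. The untested Arg2 went the other way, with 2 and 2 counts against 8 and 7. All of these values come from the same 4 libraries, so their directions are not independent of each other.

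Sod2 stood nearest to the threshold among the members in this comparison, with a log2 difference of 0.75 (SE 0.15, 95% interval 0.43 to 1.07, edgeR adjusted p = 0.0712), on 2010 and 2147 counts against 1325 and 1673. The call depended on the method and on single libraries, since Sod2 passed with DESeq2 (adjusted p = 0.003), with no filter on low counts (0.0162), and without wild-type DMSO replicate 2 (0.0326), knockout-labelled DMXAA replicate 1 (0.0419) or replicate 2 (0.0459). Sod1 differed by 0.77 (SE 0.23, edgeR adjusted p = 0.23), a value of 0.45 without wild-type DMSO replicate 1, and of 1.17 without wild-type DMSO replicate 2, where it was called (adjusted p = 0.0312). Gpx1 differed by 0.64 (SE 0.19, adjusted p = 0.241), with 88 and 107 CPM against 65.9 and 59.3 CPM, and Cat by 0.41 (SE 0.21, adjusted p = 0.434). Ass1 differed by 0.88 (SE 0.25, adjusted p = 0.202), Acod1 by 0.99 (SE 0.47, 0.409), Nos2 by 0.73 (SE 0.55, 0.599) and Gch1 by 0.16 (SE 0.17, 0.726). Under DMSO the beta cell marker sums were 253900 and 259800 CPM in knockout-labelled against 217400 and 162500 CPM in wild-type islets, with 0 of 9 called. Lymphocyte markers, at the sums given above, had 2 of 7 called higher and a median log2 difference of 2.87. Fibroblast and stellate markers had 1 of 10 called lower, a median of -1.06 and sums of 104 and 105 CPM against 324 and 140 CPM. The part of these markers in the members' differences was not tested.

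The fifth comparison did the same under DMXAA. Acod1 was lower in knockout-labelled islets, at 0.29 and 0.527 CPM against 5.81 and 5.83 CPM. The log2 difference was -3.85 (SE 0.43, 95% interval -4.76 to -2.93, edgeR adjusted p = 0.000136), or 14.4-fold, and it was the only member called, with 2.39% of all genes called, 1.02% upward and 1.37% downward. At an unadjusted p under 0.05 there were 2 higher and 2 lower members, against 5.83% and 7.17% of all genes (13% in all). Without overlap 3 were higher and 2 lower, against 23.3% and 21%. Nos2 differed by -1.19 (SE 0.46, adjusted p = 0.271), a value of -0.40 without wild-type DMXAA replicate 2. Cat lay higher in knockout-labelled islets, at 11.7 and 15 CPM against 7.48 and 8.85 CPM, without passing the test (log2 difference 0.70, SE 0.21, edgeR adjusted p = 0.131). Gpx1 differed by 0.48 (adjusted p = 0.294) and was called without knockout-labelled DMXAA replicate 1 (difference 0.77, adjusted p = 0.0232). The other members had log2 differences of 0.40 for Ass1, 0.16 for Gch1, 0.13 for Sod1 and 0.11 for Sod2. The Sod2 libraries overlapped under DMXAA, with a 95% interval of the difference from -0.21 to 0.43, and those of Sod1 and Gch1 overlapped too. Endothelial markers had 9 of 14 called higher here, macrophage markers 1 of 15, and fibroblast and stellate markers 1 of 10, with none lower. Acinar markers had a median log2 difference of -2.84, with 0 of 10 tested called. The part of these markers in the members' differences was not tested.

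**Figure D4:**
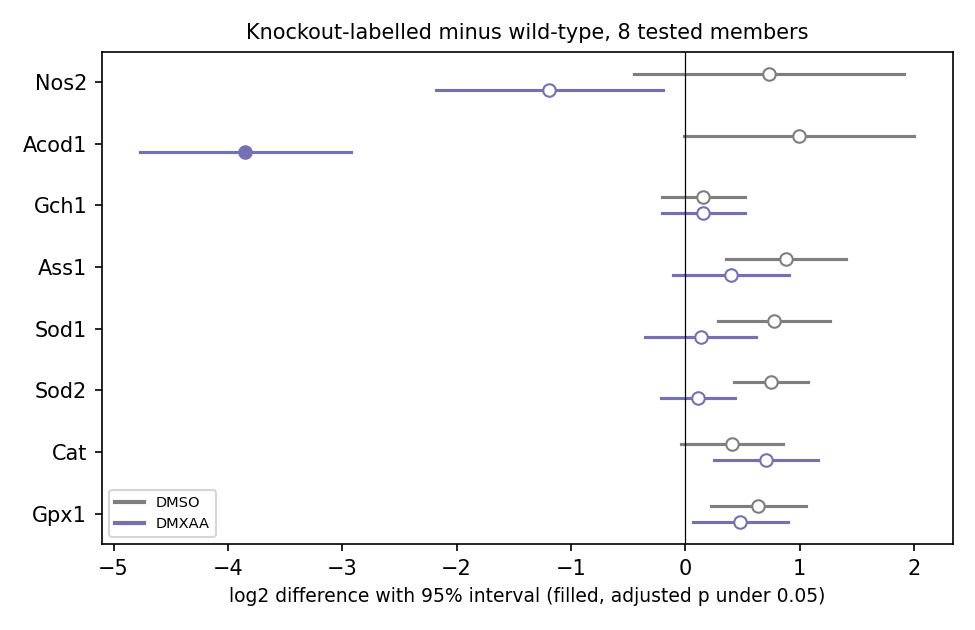
Log2 difference, knockout-labelled minus wild-type, for the 8 tested members under DMSO (grey) and DMXAA (purple); points are edgeR estimates, bars 95% intervals and filled points an adjusted p under 0.05. All 8 grey points lie above 0, and Acod1 under DMXAA, at -3.85, is the one filled point.

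The rest of the nitric oxide, tetrahydrobiopterin and arginine genes gave little more. In the list of 28 genes, 25 were tested, the 4 members Nos2, Gch1, Ass1 and, untested, Arg2 included. None was called by edgeR in either treatment comparison, in the difference between them or under DMSO, and at an unadjusted p under 0.05 there were 2 higher and 1 lower, 3 and 1, 3 and 2, and 2 and 2, where 11.9%, 7.3%, 8.71% and 12.3% of all genes passed in either direction. The median log2 fold change of DMXAA was -0.01 in wild-type and 0.03 in knockout-labelled islets (0.00 over all genes in both). The most abundant of them, Odc1, the first enzyme of polyamine synthesis, ran from 347 to 677 CPM, and Slc7a2, a carrier of arginine and other cationic amino acids, from 222 to 286 CPM. Under DMXAA 1 gene of the list was called between labels, where 2.39% of all genes were called and 1.02% upward. At an unadjusted edgeR p under 0.05 there were 3 higher and 1 lower, against 13% of all genes in either direction. The called gene was Gucy1a1, a subunit of the guanylate cyclase that senses nitric oxide. It was at 9.39 and 8.43 CPM in knockout-labelled and 2.85 and 4.84 CPM in wild-type islets (log2 difference 1.21, SE 0.29, edgeR adjusted p = 0.0448). That call was lost in 6 of the 8 fits without a library, namely without wild-type DMSO replicate 1, wild-type DMXAA replicate 1 or any one of the 4 knockout-labelled libraries (adjusted p from 0.055 to 0.504), and with another scaling or the older form of the test. Endothelial markers, 9 of 14 of which were higher in the same comparison, summed to 1461 and 1336 CPM against 741 and 767 CPM, and their part was not tested.

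Acod1 held the calls in the list of its own pathway. In the list of 23 genes of itaconate and the citric acid cycle, all were tested. Acod1 was the 1 gene called in wild-type islets, in the difference between labels and between labels under DMXAA. Of all genes 1.48%, 1.2% and 2.39% were called in these comparisons. None of the list was called in knockout-labelled islets or under DMSO by edgeR, where 0.375% and 0.223% of all genes were. At an unadjusted p under 0.05 there were 2 higher in wild-type islets, 2 lower in knockout-labelled islets, 2 lower in the difference and 2 higher under DMSO, against 11.9%, 7.3%, 8.71% and 12.3% of all genes in either direction. The other gene at that level in wild-type islets was Slc25a1, the mitochondrial citrate carrier, at 62.5 and 81.6 CPM under DMSO and 126 and 111 CPM under DMXAA. Its log2 fold change was 0.71 (SE 0.20, edgeR adjusted p = 0.161). Slc25a1 was not called in 5 of the 8 fits that each left out 1 library, and it was called in the others. Malate dehydrogenase Mdh1 ran from 307 to 431 CPM and fumarase Fh1 from 228 to 376 CPM over the 8 libraries. The median log2 fold change of DMXAA in wild-type islets was 0.04.

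Enzymes that make superoxide held further calls. Of 18 listed genes 10 were tested, and 1 rose in wild-type islets, where 1.48% of all genes were called and 1.11% upward. Xdh, xanthine dehydrogenase, which can pass electrons to oxygen, was at 10.6 and 9.54 CPM under DMSO and 17.1 and 23.6 CPM under DMXAA. Its log2 fold change was 1.01 (SE 0.23, edgeR adjusted p = 0.0432). This call lay close to the threshold and was lost without any one of the 4 wild-type or the 2 knockout-labelled DMSO libraries (adjusted p from 0.0549 to 0.516). Cybb, the catalytic subunit of the phagocyte NADPH oxidase, was at 5.52 and 4.03 CPM under DMSO and 10.1 and 9.11 CPM under DMXAA in wild-type islets, with a log2 fold change of 1.01 that did not pass (SE 0.27, edgeR adjusted p = 0.135), although it did with no filter on low counts (0.0455).

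Under DMXAA, where 2.39% of all genes were called, 1.02% upward and 1.37% downward, Cybb and Xdh were both lower in knockout-labelled than in wild-type islets. Cybb was at 2.13 and 3.63 CPM there (log2 difference -1.75, SE 0.30, edgeR adjusted p = 0.00443), a call kept in all 8 fits without a library. Xdh was at 10.8 and 8.43 CPM (log2 difference -1.07, SE 0.23, adjusted p = 0.0229), and this did not pass when replicate 2 of the wild-type (0.273) or of the knockout-labelled (0.178) DMXAA libraries was removed. The DMXAA effect on Cybb differed between labels by -1.74 (SE 0.42, edgeR adjusted p = 0.0779), and that on Xdh by -0.42 (adjusted p = 0.773), neither past the test; for Cybb the difference was called by DESeq2 (adjusted p = 0.0303), with no filter on low counts (0.017) and without knockout-labelled DMXAA replicate 2 (0.0342). Between labels under DMXAA, macrophage markers had 1 of 15 called higher, none lower and a median log2 difference of 0.69. Their part in the Cybb and Xdh values was not tested. No superoxide source was called in knockout-labelled islets or under DMSO by edgeR. At an unadjusted p under 0.05 there were 1 higher and 3 lower, and 1 higher and 2 lower, against 7.3% and 12.3% of all genes in either direction. Xdh was among them in both comparisons. In knockout-labelled islets it was at 7.27 and 5.61 CPM under DMSO, and its log2 fold change with DMXAA was 0.59 (SE 0.25, edgeR adjusted p = 0.616). Between labels under DMSO Xdh differed by -0.65 (SE 0.25, edgeR adjusted p = 0.331), so it lay lower in knockout-labelled islets without DMXAA as well. Nearest to a call in both was Rac2, a small GTPase of blood cells, at 5.40 and 5.55 CPM in knockout-labelled islets under DMSO, 1.55 and 1.11 CPM there under DMXAA, and 2.47 and 0.738 CPM in wild-type islets under DMSO. Its log2 values were -2.02 for DMXAA in knockout-labelled islets (SE 0.43, edgeR adjusted p = 0.0706) and 1.79 between labels under DMSO (SE 0.42, adjusted p = 0.135), not called in 6 and 7 of the 8 fits without a library (lowest adjusted p 0.0182 and 0.0498). The lymphocyte marker sum was likewise highest in the knockout-labelled libraries under DMSO, and its part was not tested. The most abundant, Rac1, a small GTPase, ran from 150 to 217 CPM and the aldehyde oxidase Aox1 from 24.2 to 42.1 CPM. Of the other subunits of the phagocyte oxidase, 3 had log2 fold changes in wild-type islets of -0.30 for Cyba, -0.98 for Ncf1 and -1.82 for Ncf4, none past the test.

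**Figure D5:**
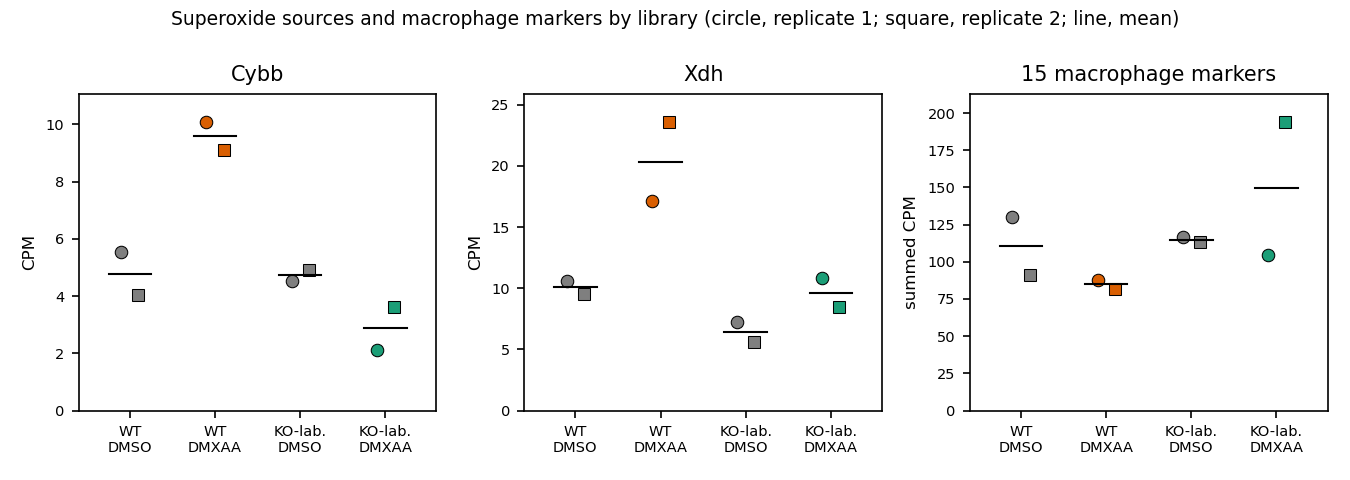
CPM of the superoxide sources Cybb and Xdh and the summed CPM of 15 macrophage markers in each library, by genotype label and treatment (KO-lab., knockout-labelled); circles are replicate 1, squares replicate 2 and lines the mean of the 2 libraries, and the vertical axes start at 0 and differ between panels. Cybb and Xdh are highest in the wild-type DMXAA libraries. The marker sums there, 87.6 and 82 CPM, are the lowest of all 8, but single markers went both ways. Against wild-type DMSO, Lyz2 was lower in both of these libraries, and C1qa and Mertk were higher. The part of macrophages in the Cybb and Xdh values was not tested.

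Genes that remove superoxide and peroxide held no call in any of the 5 comparisons by edgeR. Of 31 listed genes 29 were tested, the members Sod1, Sod2, Cat and Gpx1 among them. At an unadjusted p under 0.05, 7 were higher and none lower in knockout-labelled islets under DMSO, and again 7 and none under DMXAA, where 6.85% and 5.83% of all genes were higher. In wild-type islets with DMXAA 4 were higher and 1 lower, in knockout-labelled islets none either way, and in the difference 1 and 1. Of all genes 5.73% and 6.14%, 4.0% and 3.3%, and 4.67% and 4.04% did so. Under DMSO 26 of the 29 log2 differences were positive, with a median of 0.29, and under DMXAA 22, with a median of 0.20 (0.00 and 0.04 over all genes, of which 50.0% and 54.3% were positive). The most abundant of the list other than members showed the same order. Txnrd1, the cytosolic thioredoxin reductase, was at 466 and 481 CPM in knockout-labelled and 315 and 333 CPM in wild-type DMSO islets (log2 difference 0.55, SE 0.14, edgeR adjusted p = 0.174). Gpx3, the secreted glutathione peroxidase, was at 411 and 482 CPM against 245 and 298 CPM (log2 difference 0.72, SE 0.21, adjusted p = 0.22). Under DMXAA both lay without overlap above the wild type again, by 0.46 and 0.66 on the log2 scale (adjusted p = 0.153 for both).

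The members did not share one pattern across the libraries. As a description over 8 libraries of 4 groups, with no test, Pearson correlations of log2(CPM + 1) were 0.88 between Sod1 and Sod2, 0.82 between Cat and Gpx1, 0.80 between Ass1 and Sod2 and 0.76 between Nos2 and Acod1. Acod1 and Sod2 were at 0.08, and Acod1 and Cat at -0.68. Among 14420 genes with a mean of at least 1 CPM, the 5 whose pattern was most like that of Acod1 were Ifi209 (0.98), Ifi206 (0.98), Pacsin3 (0.97), Ifi213 (0.97) and Slfn2 (0.97). Of these, Slfn2 was at 19.5 and 20.4 CPM in wild-type DMXAA libraries, while the other 6 held 1.57 to 4.34 CPM. For Nos2 they were Arhgap8 (0.96), Sstr2 (0.94), Car13 (0.92), Nmi (0.92) and Csf3 (0.91), which shared its high value in wild-type DMXAA replicate 2. Those of Gch1 were Arf5 (0.99), Retreg2, Fam120aos, Spint2 and Rab25 (each 0.98), and those of Sod2 were Arhgap11a, Tmem51, 9130401M01Rik (each 0.98), Sik1 and Lrwd1 (both 0.96). Depth and the make-up of each preparation are common to all genes of a library, so these correlations rest on few independent points.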

How the data were processed

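Poly(A) RNA of 8 mouse islet libraries was sequenced as paired ends. The authors deposited 1 raw count per Ensembl gene and library, not normalized; the submitters' processing notes name HISAT2, HTSeq and mm10, and neither annotation release nor strand setting is stated there. Symbols, coordinates and lengths came from GENCODE M21, which holds 54495 of the 54532 identifiers, and promoters from RefSeq (GRCm38.p6). Counts were analysed with edgeR 4.0.16 in R 4.3.3. The steps were filterByExpr by group (17055 genes kept), TMM scaling, 1 coefficient per group over all 8 libraries and the quasi-likelihood F-test (legacy=FALSE, robust). Adjusted p-values are Benjamini-Hochberg over all genes tested, called under 0.05. SE is the absolute log2 difference over the square root of F. Simulated data held equal numbers of 4-fold and 2-fold changes in the wild-type DMXAA libraries, all in genes with a mean above 1 CPM. The fit was tested on these data. It called 91 of the 4-fold and 57 of the 2-fold changes in the wild-type comparison, and 74 and 26 in the difference between labels. Of the 159 and 110 calls, 11 and 10 were false. Changes of 2-fold were thus often missed. The members, lists and motifs were chosen with earlier results of these data known. All members are reported; of each list, up to 4 called genes with a mean of at least 1 CPM, or the 2 most abundant where none was called. Cyba, Ncf1, Ncf4, Rac2, Slc25a1, the single macrophage markers and the values of Cybb and Xdh outside their calls were chosen after their values were seen. Replicates of every group differed by more than counting error (chi-square per degree of freedom from 6.83 to 53.8). Alternatives were DESeq2 1.42.0, RLE scaling, no filter, the older quasi-likelihood form, a replicate term and leaving out each library, where the lone remaining library of a group is assumed to vary like the other groups.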

Additional observations from a re-analysis of the deposited data

Results flagged for a closer look

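The DMXAA effect on Acod1 differed between genotype labels by -4.84 on the log2 scale (edgeR test of the difference, adjusted p = 0.00173). It was the 1 member with a called difference.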

How the results depend on the processing

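The call of Acod1 in wild-type islets, in the difference between labels and between labels under DMXAA was kept under all 13 alternatives, with log2 values from 2.87 to 2.98, from -5.28 to -4.44 and from -4.30 to -3.45. Over all members and comparisons, 495 of 520 recomputed values kept their direction and side of the threshold, 8 passed it anew and 17 changed sign, none of them called. The number of members called ranged, leaving out single libraries, from 1 to 2 in wild-type islets, from 0 to 2 between labels under DMSO and from 1 to 2 under DMXAA; under DMSO it was 1 with no filter and 1 with DESeq2. Signs changed for Gch1 in the difference between labels (0.00 as reported), at -0.0078 with RLE scaling, -0.0108 with no filter, -0.0078 with DESeq2 and -0.0059 with the replicate block, and from -0.25 to 0.22 without single libraries. The other sign changes came from leaving out a library. They were Gpx1 in wild-type islets (-0.031 to 0.14), Gch1 (-0.14 to 0.33), Sod1 (-0.44 to 0.12), Cat (-0.34 to 0.01) and Gpx1 (-0.45 to 0.18) in knockout-labelled islets, Gpx1 in the difference (-0.50 to 0.13), Gch1 (-0.11 to 0.38) and Sod1 (-0.18 to 0.39) under DMXAA and, among pathway genes checked after the data were seen, Cybb under DMSO (-0.22 to 0.22). The cause was not tested.

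Over all genes, 253, 64, 204, 38 and 407 were called in the 5 comparisons in the order given above. Without single libraries these ranged from 160 to 994, from 3 to 129, from 87 to 304, from 3 to 240 and from 205 to 674. DESeq2 called 154 in knockout-labelled islets, 312 in the difference, 155 under DMSO and 616 under DMXAA. No filter gave 177 in knockout-labelled islets and 159 under DMSO, and the older form of the test 29 and 17. The replicate block, with 259, 61, 217, 56 and 417, changed no call of a member. Same-numbered libraries did not deviate together, with correlations from -0.0999 to 0.0746, so the numbers were not used as pairs. Counts of 2 to 112 limit what Arg2, Nos2 and Acod1 can show.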
